A study of Mus musculus with 9 samples.

Results

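A set of 10 imprinted genes of the mouse, Meg3 and 9 others, were followed in the hippocampus across age and across an Alzheimer's disease model. The genes are Meg3, Dlk1, Peg3, Snrpn, Ndn, Igf2, H19, Mest, Plagl1 and Cdkn1c, and all of their probes were taken by gene symbol with no filter on missing values. They held 15 of the 29922 probes on the array and 10 of its 16637 gene symbols: 3 probes each for Peg3 and Snrpn, 2 for Dlk1 and 1 for each of the others. They were chosen by the measured log2 ratio of Meg3, which was low in the wild-type (WT) ageing comparison, and by membership of the imprinted family, so values in that comparison are a description and carry no test.

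An imprinted gene is read from only 1 of its parental copies, because DNA methylation laid down in the egg or the sperm marks a nearby control region. Most such genes lie in clusters in which 1 control region governs genes of opposite parental origin: Meg3 and Dlk1 share a cluster, as do H19 and Igf2. Of the 10 genes, Meg3, H19 and Cdkn1c are known as maternally expressed and the other 7 as paternally expressed. Many imprinted genes act on growth before birth, and several, Meg3, Snrpn, Ndn and Peg3 among them, stay active in neurons of the adult brain.

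The data came from 9 2-colour arrays on 8 female mice, 2 in each of 4 groups that join a genotype (WT or 3xTG) with an age (3 or 12 months). The labels give the WT strain as 129SV with C57BL6; the 3xTG line carries, among its alleles, the transgenes labelled APPSwe and tauP201L, for mutant APP and mutant tau. No group was treated, and the promoter of the transgenes is not given in the sources used here. Each RNA came from a single hippocampus and was linearly amplified. Each array set a test mouse against a reference mouse, with 3 arrays (replicates 1 to 3) for each of 3 comparisons: WT at 12 over 3 months (WT ageing), 3xTG over WT at 3 months, and 3xTG over WT at 12 months. The same 2 WT mice of 12 months were the test in WT ageing and the reference in the 12-month genotype comparison, and the same 2 WT mice of 3 months were the reference in WT ageing and in the 3-month genotype comparison. The comparisons are therefore not independent. The p-values rest on each probe's spread between arrays. The share of that spread due to mice was set by 1 variance ratio for all probes, 1.02, estimated from 142 probes. With 2 mice a group it was not measured for each probe. Re-estimated in other settings, the ratio ran from 0.11 over gene means to 10 without replicate 2 of WT ageing. The strain names of WT and 3xTG mice differ, so genotype and strain background cannot be told apart.

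The values were log2 ratios of test over reference, a direction that rests on the labels. Each array listed between 45.7 and 54.1% of its probes, and no listed value lay between -0.5 and 0.5, so a missing value can be a small ratio or a spot left out. Array medians ran from -1.71 to 2.34, and the median of the values an array lists was subtracted from each of its values. A centred value of 0 is thus the middle of that array's listed probes, not equal RNA in both mice. No probe passed an adjusted p of 0.05 in limma in any comparison, 0 of 11183 probes in WT ageing, 0 of 10336 in genotype at 3 months and 0 of 10983 in genotype at 12 months (0.0% each). At an unadjusted p under 0.05 the counts were 771, 791 and 925 probes (6.89, 7.65 and 8.42%). Over the 10 genes, 67 of 135 possible values were listed (49.6%, against 48.6% over all probes).

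Promoter windows are shown for the 3 genes whose values the text turns on, to show how CG pairs, the site of the methylation that marks an imprint, lie around a start of transcription. The sequences are RefSeq's for GRCm38.p6, from 250 bases before to 50 bases after the start, on the gene's own strand, with CG pairs in capitals; for each of the 3, which have several starts, the window with most CG pairs is given.
Meg3 at chr12:109540746-109541045, plus strand: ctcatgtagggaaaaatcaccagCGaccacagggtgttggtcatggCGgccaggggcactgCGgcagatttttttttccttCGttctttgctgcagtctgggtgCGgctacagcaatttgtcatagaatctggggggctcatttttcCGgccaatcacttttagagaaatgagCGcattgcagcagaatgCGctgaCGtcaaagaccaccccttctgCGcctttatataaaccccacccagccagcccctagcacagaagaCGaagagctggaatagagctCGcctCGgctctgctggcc
Igf2 at chr7:142658755-142659054, minus strand: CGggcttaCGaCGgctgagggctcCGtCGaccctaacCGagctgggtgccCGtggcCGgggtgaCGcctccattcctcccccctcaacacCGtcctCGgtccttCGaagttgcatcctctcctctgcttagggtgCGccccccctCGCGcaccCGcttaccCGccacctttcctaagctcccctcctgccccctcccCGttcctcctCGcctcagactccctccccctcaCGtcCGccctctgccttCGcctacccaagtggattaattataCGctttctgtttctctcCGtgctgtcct
Snrpn at chr7:60005150-60005449, minus strand: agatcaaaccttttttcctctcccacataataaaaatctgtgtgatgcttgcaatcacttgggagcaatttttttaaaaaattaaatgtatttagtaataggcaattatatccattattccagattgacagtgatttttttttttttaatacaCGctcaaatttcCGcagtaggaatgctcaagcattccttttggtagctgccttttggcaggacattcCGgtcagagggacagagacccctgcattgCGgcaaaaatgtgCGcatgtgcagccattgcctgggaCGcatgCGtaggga
Igf2's window held 24 CG pairs, Meg3's 13 and Snrpn's 7, against a median of 7 over 32851 promoter windows of the same length. The 3 were picked as the richest of their genes and the 32851 were not: the other Meg3 window held 1. The letters TGCCGC, which hold a CG and are known as the motif of ZFP57, a keeper of imprints, were searched on both strands. They stood 1 time in the Meg3 window, 1 time in the Snrpn window and not in the Igf2 window shown, though 1 time in another Igf2 window. Windows were on hand for 8 of the 10 genes. Of their 17 windows 6 held the letters, overlapping windows of Mest among them, and 11.6% of all windows did. The arrays measured no methylation.

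**Figure D1:**
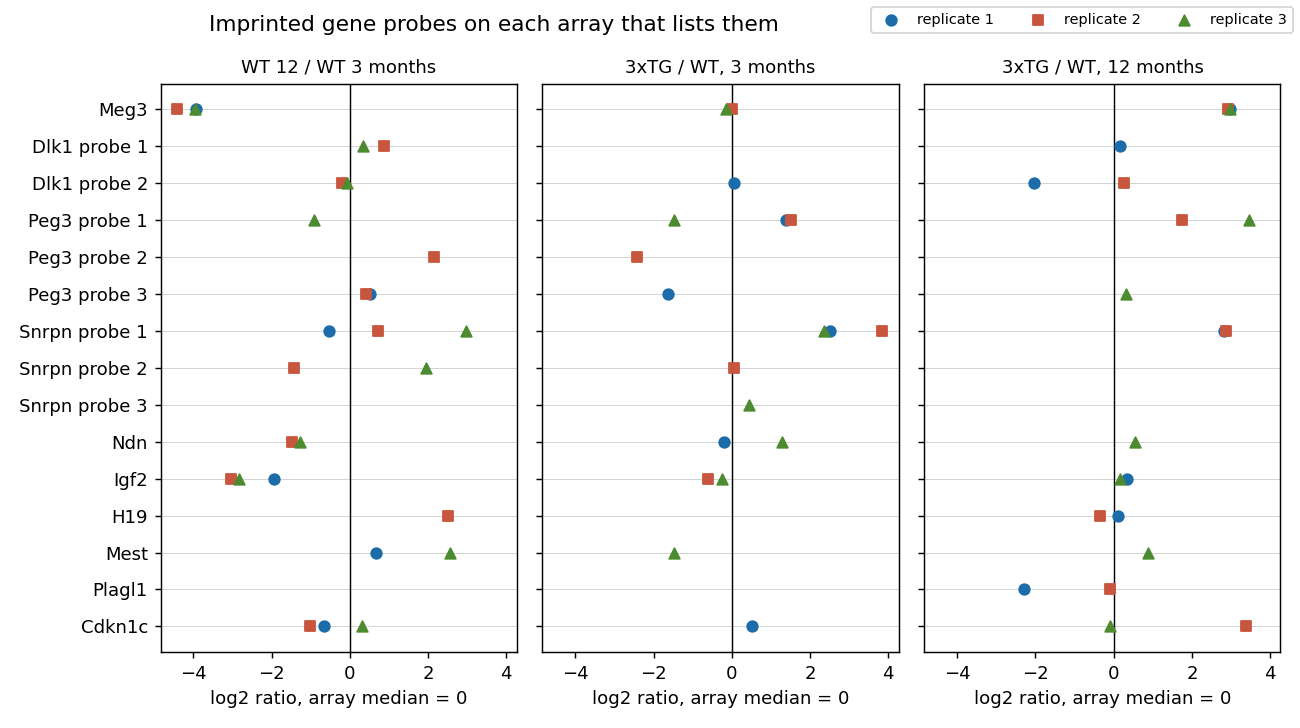
Log2 ratio of each probe of the 10 genes (rows) on every array that lists it, with the array's median at 0; the 3 panels are the comparisons and the symbols mark replicates 1 to 3. Meg3 lies between -4.43 and -3.94 in WT ageing, near 0 at 3 months and between 2.93 and 2.97 at 12 months.

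Meg3, a long non-coding RNA of chromosome 12, was listed on 8 of the 9 arrays. In WT ageing its centred log2 ratios were -3.94, -4.43 and -3.95 on replicates 1 to 3, a mean of -4.11 ± 0.28 (SD, n = 3 arrays). All 3 arrays put it among the lowest probes, at percentiles 5.35, 3.23 and 5.49 of the array. Of all probes listed on all 3 of these arrays, 22.2% were below the median on each, a share given as background only, since Meg3 was chosen for its value here. At 3 months the 3xTG over WT values were 0.007 and -0.145 on replicates 2 and 3, and replicate 1 listed none. Had that value been left out as a small ratio, its centred value would lie between -1.34 and -0.343. At 12 months the 3xTG over WT values were 2.97, 2.93 and 2.96, a mean of 2.95 ± 0.02 (SD, n = 3 arrays), at percentiles 89.1, 88.6 and 88.6. All 3 were above the median, as were 29.7% of the probes listed on all 3 of these arrays. Within WT ageing and within the 12-month comparison the arrays lay close together on this centred scale. As deposited, the 12-month arrays lay further apart, at 2.10, 2.06 and 1.25.

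Fitted together with shared mice and dye, Meg3 had a log2 ratio of -4.12 ± 0.88 (SE) in WT ageing, -0.07 ± 1.05 between genotypes at 3 months and 2.92 ± 0.88 between genotypes at 12 months. The genotype difference at 12 months minus that at 3 months was 2.98 ± 1.37 (SE). No p is given for Meg3, since the 12-month WT mice whose low ratio chose it are the reference of the 12-month comparison. Set against WT at 3 months, the fitted order was 3xTG at 3 months (-0.07 ± 1.05), 3xTG at 12 months (-1.2 ± 1.02) and WT at 12 months (-4.12 ± 0.88). The first and second of these differ by 1.13 log2 units in the fit, less than their SE of 1.26, with 3xTG at 12 months the lower. Slide numbers fell into a lower and a higher run, the genotype arrays in both: at 12 months replicate 1 of the lower run gave 2.97 and replicates 2 and 3 of the higher run 2.93 and 2.96.

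**Figure D2:**
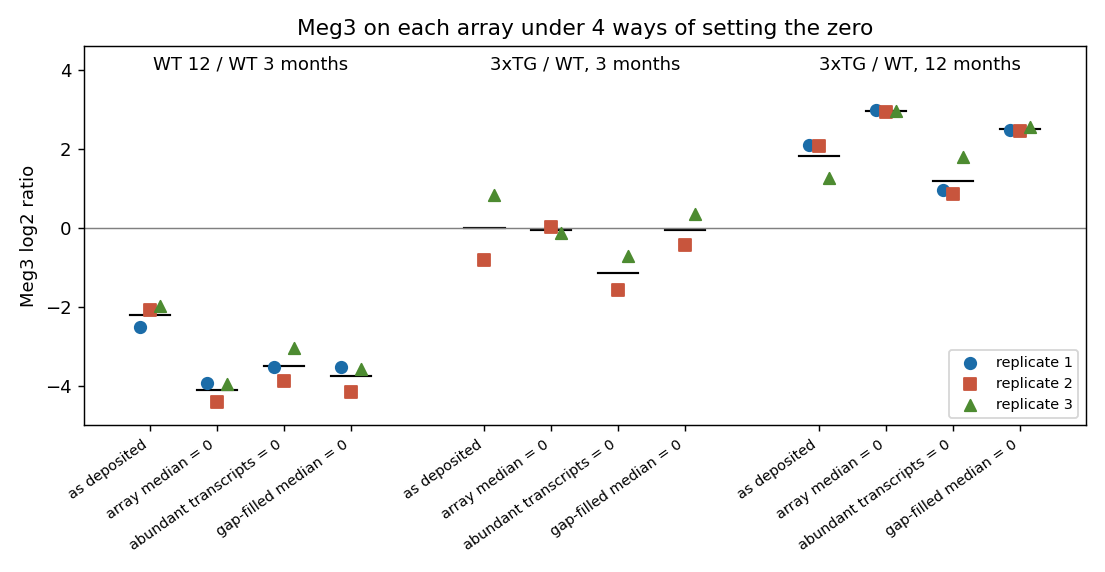
Meg3 log2 ratio on each array (symbols, replicates 1 to 3; bars, means) with the zero set in 4 ways: as deposited, at the array median, at the median of abundant transcripts, and at the array median after filling the gap of small ratios. Meg3 is below 0 on all 3 WT ageing arrays and above 0 on all 3 arrays of 12 months in each of the 4, while its size differs.

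The size of the Meg3 values, and how close the 12-month arrays lay to each other, depended on where the zero was set. The sign in WT ageing and at 12 months did not. As deposited, without centring, the ratios were -2.53, -2.09 and -1.995 in WT ageing and 2.10, 2.06 and 1.25 between genotypes at 12 months. With ribosomal, respiratory, glycolytic and proteasome transcripts at 0 they were -3.54, -3.90 and -3.05 in WT ageing and 0.941, 0.841 and 1.79 at 12 months. At 3 months the deposited values were -0.828 and 0.820, of opposite sign on the 2 arrays, and both were below 0 on the scale of abundant transcripts, at -1.58 and -0.719.

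Dlk1, the Delta-like membrane protein of the same cluster, did not show Meg3's low values in WT ageing. Its first probe stood at 0.880 and 0.345 on replicates 2 and 3 and its second at -0.192 and -0.065 on the same arrays. At 3 months only the second probe was listed, on 1 array, at 0.068. At 12 months the first probe gave 0.163 on replicate 1, where the second gave -2.05, and the second gave 0.268 on replicate 2, so the probes disagreed on the array that listed both. Every array that listed Dlk1 had the test RNA in the same dye. Its ratios could therefore not be separated from the dye term of the fit, and no fitted value is given. The 2 further protein-coding genes of the cluster, named for their position after the values were seen, were listed at 12 months on 2 arrays: Dio3, which inactivates thyroid hormone, at a mean of -2.47 ± 1.86 (SD) and Rtl1, a retrotransposon-derived gene, at -0.86 ± 0.63 (SD). Rtl1 was also listed on all 3 arrays of 3 months, at -1.19 ± 2.75 (SD), from -4.35 to 0.585.

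Igf2, a growth factor of the insulin family on chromosome 7, was also low in WT ageing. Its values there were -1.95, -3.03 and -2.84 on replicates 1 to 3, a mean of -2.61 ± 0.58 (SD, n = 3 arrays). All 3 were below the array median, and they were also below 0 as deposited, at -0.534, -0.691 and -0.886. The genotype arrays lay near 0: -0.598 and -0.260 on replicates 2 and 3 at 3 months, and 0.350 and 0.149 on replicates 1 and 3 at 12 months. Both arrays of 3 months were below and both of 12 months above the median, but as deposited the 3-month values were of opposite sign, at -1.43 and 0.705. The fitted ratios were -2.52 ± 0.96 (SE) in WT ageing, -0.43 ± 1.14 at 3 months (limma adjusted p = 0.935) and 0.17 ± 1.06 at 12 months (limma adjusted p = 0.977). The difference between ages in the genotype ratio, 0.60 ± 1.55 (SE), did not pass (limma adjusted p = 0.996; 0.0% of 6807 probes passed and 3.45% had an unadjusted p under 0.05). Relative to WT at 3 months, Igf2 was fitted at -2.52 ± 0.96 in WT and at -2.35 ± 1.24 in 3xTG at 12 months, values well within their errors of each other. At 12 months the 2 Igf2 arrays read -0.519 and -1.56 as deposited, so its side of 0 there follows the centring.

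H19, the maternally expressed non-coding RNA beside Igf2, was listed 1 time in WT ageing, at 2.50 on replicate 2, where Igf2 was at -3.03. At 3 months H19 was not listed on any array, and at 12 months it stood at 0.117 and -0.341 on replicates 1 and 2. Cdkn1c, an inhibitor of cyclin-dependent kinases on the same chromosome, was listed on all 3 WT ageing arrays, at -0.666, -1.02 and 0.310. At 3 months it was listed 1 time, at 0.520, and at 12 months its 2 arrays were far apart, 3.38 on replicate 2 and -0.091 on replicate 3. The fitted Cdkn1c ratios were -0.73 ± 1.24 (SE) in WT ageing and 1.65 ± 1.27 at 12 months (limma adjusted p = 0.717). Without centring the WT ageing value of Cdkn1c was 1.10, of the opposite sign, and the 12-month value was 0.36; with abundant transcripts at 0 the 12-month value was 0.015.

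Snrpn, which encodes a protein of the splicing machinery and lies in the region lost in Prader-Willi syndrome, gave the highest genotype values of the 10 genes at 3 months. Its first probe was listed on 8 arrays. At 3 months it stood at 2.52, 3.85 and 2.36 on replicates 1 to 3, a mean of 2.91 ± 0.82 (SD, n = 3 arrays), all above the array median. At 12 months its values were 2.83 and 2.88 on replicates 1 and 2, and replicate 3 listed none. In WT ageing its arrays were far apart, at -0.539, 0.730 and 2.97. Replicate 1 at 3 months came from the lower run of slide numbers (2.52) and the other two from the higher run (3.85 and 2.36). The fitted genotype ratio was 2.55 ± 1.10 (SE) at 3 months and did not pass the adjusted threshold (limma adjusted p = 0.646, unadjusted p = 0.0492). Probes listed on all 3 arrays and above the median on each made up 30.9% of those listed on all 3 at 3 months. At 12 months the fitted ratio was 1.87 ± 1.37 (SE, limma adjusted p = 0.687), lower than the plain mean of 2.85 ± 0.03 (SD, n = 2 arrays), since the fit also uses the dye term and the arrays that share mice; with abundant transcripts at 0 it was -0.14. The fitted difference between ages was -0.68 ± 1.71 (SE, limma adjusted p = 0.996).

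The other Snrpn probes gave lower values than the first where both were listed. The second probe stood at 0.047 on replicate 2 at 3 months, where the first was at 3.85. In WT ageing the second probe gave -1.44 and 1.96 on replicates 2 and 3, against 0.730 and 2.97 for the first. The third probe was listed on a single array, at 0.439 on replicate 3 at 3 months, where the first was at 2.36. The high genotype value of Snrpn thus rests on 1 of its 3 probes.

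Ndn, which encodes necdin, a neuronal growth suppressor of the same chromosomal region, was low on both WT ageing arrays that listed it, at -1.49 and -1.29 on replicates 2 and 3. As deposited these were 0.850 and 0.668, so their side of 0 follows the centring. At 3 months Ndn stood at -0.189 and 1.29 on replicates 1 and 3, and at 12 months at 0.546 on its only array. The fitted genotype ratio at 3 months was 0.55 ± 1.15 (SE, limma adjusted p = 0.910).

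**Figure D3:**
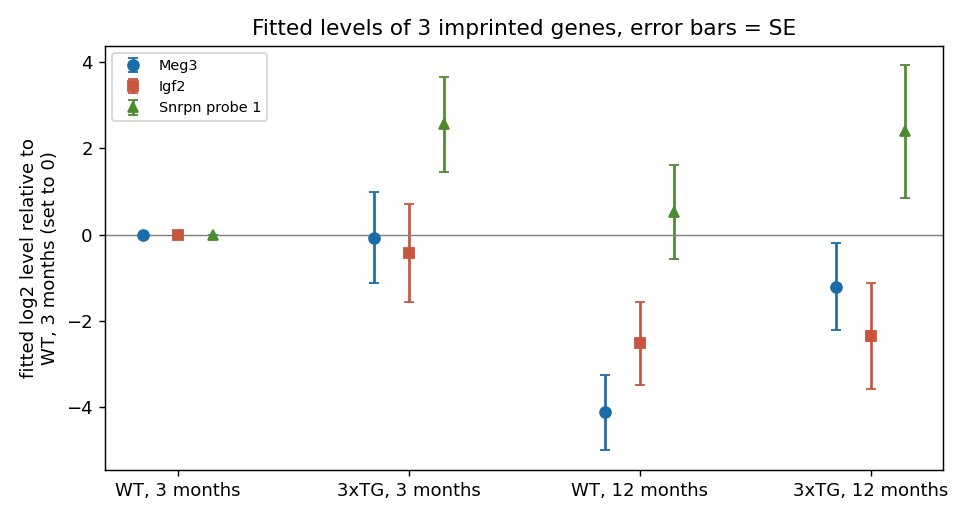
Fitted log2 level of Meg3, Igf2 and the first Snrpn probe in each group relative to WT at 3 months, which is set to 0; error bars are SE from the limma fit. Meg3 is lowest in WT at 12 months (-4.12), Igf2 is fitted at -2.52 in WT and -2.35 in 3xTG at 12 months, and Snrpn is high in both 3xTG groups (2.55 and 2.39).

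Peg3 encodes a zinc finger protein. At 3 months its first probe was at 1.38 and 1.51 on replicates 1 and 2 and at -1.47 on replicate 3, so the arrays disagreed in sign. At 12 months the same probe was above the median on both arrays that listed it, at 1.75 and 3.47 on replicates 2 and 3, and its only WT ageing value was -0.913. The fitted genotype ratios at 3 and 12 months were 0.15 ± 1.26 (SE; adjusted p = 0.987 by limma) and 2.61 ± 1.29 (SE; adjusted p = 0.590 by limma, unadjusted p = 0.0913), and their difference of 2.46 ± 1.80 (SE) did not pass (limma adjusted p = 0.996). With abundant transcripts at 0 the 12-month ratio was 0.98. The difference was 0.30 without replicate 3 at 3 months and 0.56 without centring. The second Peg3 probe was listed at 2.14 on replicate 2 of WT ageing and at -2.41 on replicate 2 at 3 months, where the first was at 1.51. The third was at 0.504 and 0.4 on replicates 1 and 2 of WT ageing, at -1.64 on replicate 1 at 3 months, where the first was at 1.38, and at 0.321 on replicate 3 at 12 months, where the first was at 3.47. Peg3's probes therefore disagreed in sign on both 3-month arrays that listed more than 1 of them.

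Mest, a hydrolase of the paternally expressed group, stood at 0.668 and 2.55 on replicates 1 and 3 of WT ageing, at -1.49 on its only array of 3 months and at 0.866 on its only array of 12 months. Plagl1, a zinc finger transcription factor, was listed only at 12 months, at -2.30 and -0.101 on replicates 1 and 2. Neither gene had a fitted value: the arrays of Mest left no residual degree of freedom, and both arrays of Plagl1 had the test RNA in the same dye.

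Counted as a group, the genes did not move together in 1 direction in WT ageing, where the probes listed on at least 2 arrays were 10. Of these, 3 were above the median on every array that listed them and 4 below it, against 25.1 and 26.1% of all such probes, with a median of 0.07 against 0.04 over all probes. The 4 low probes were those of Meg3, Igf2 and Ndn and the second of Dlk1. At 3 months 5 probes were listed on at least 2 arrays, of which 1, the first of Snrpn, was above on all and 1, that of Igf2, below on all (background 28.7 and 27.6%), with a median of 0.47 against -0.08. At 12 months 4 of 8 were above on all and 1 below on all (background 29.9 and 28.3%), with a median of 0.95 against 0.10. The 4 were Meg3, Igf2, and the first probes of Snrpn and Peg3. Without centring, the medians of the 10 genes were 2.17, 0.80 and -0.31, against 1.95, 0.17 and -1.06 over all probes. In each genotype comparison 5 of the 15 probes could be fitted, among them that of Meg3, for which no test is given. None of the others passed the adjusted threshold, and over all probes 0 of 10336 at 3 months and 0 of 10983 at 12 months did. Dlk1, H19, Mest and Plagl1 were tested in neither.

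Other genes of the imprinted family were taken from a list of 73 genes, 60 of them with a probe and 76 probes in all. The list came from general knowledge, and whether a gene is imprinted in the hippocampus was not tested. The listed probes spread over both sides of the median in each comparison. In WT ageing 16 of 29 had a mean above and 13 below 0, with a median of 0.43. At 3 months 23 of 38 were above and 15 below (median 0.11), and at 12 months 23 of 42 were above and 19 below (median 0.22). Of these, 29 could be tested at 3 months and 27 at 12 months, and none passed the adjusted threshold. The genes of smallest p at 3 months were Dcn, a matrix proteoglycan, at 3.55 ± 1.13 (SE, limma adjusted p = 0.639), Grb10, an adaptor that restrains insulin signalling, at 3.61 ± 1.35, and Herc3 and Inpp5f, at 2.41 ± 1.04 and 2.03 ± 0.95. At 12 months they were Pon2, a paraoxonase, at 3.93 ± 1.11 (SE, limma adjusted p = 0.578), Inpp5f at 2.90 ± 1.2, Ddc, which makes dopamine and serotonin, at 2.86 ± 1.2 on 1 probe, and Blcap at 2.67 ± 1.31. The other listed Ddc probe had a 12-month mean of -2.09 (arrays at -4.27 and 0.084), so the Ddc probes disagreed. In WT ageing, where no test is given, Wars stood at -3.37 ± 1.14 (SE), Phactr2 at -3.47 ± 1.74, Gnas, which encodes a G protein subunit, at 3.18 ± 1.42 and Asb4 at 2.12 ± 1.14.

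**Figure D4:**
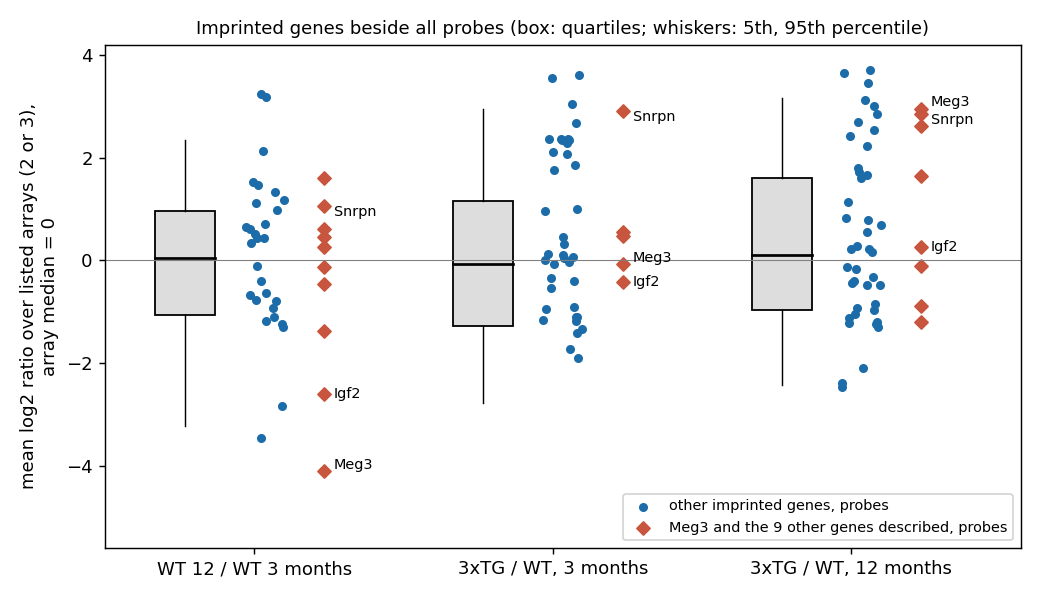
Mean log2 ratio over the arrays that list a probe (2 or 3 arrays, array median at 0) for all probes (box: quartiles and median; whiskers: 5th and 95th percentiles), for probes of other imprinted genes (circles) and for probes of the 10 genes (diamonds). Meg3 lies below the lower whisker in WT ageing, at -4.11, and no probe of another imprinted gene is as low. Meg3 was chosen for that low value, so its place there is a description only.

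Genes that set or keep imprints were taken from a list of 19, of which 18 had a probe. In WT ageing 5 of 14 listed probes had a mean above 0 and 9 below. Trim28, the corepressor that ZFP57 recruits to imprinted regions, was at -2.77, -3.29 and -3.14 on replicates 1 to 3, and Ehmt2, a histone methyltransferase, at -2.45, -4.78 and -2.90. Both were picked from the list by smallest p in the fit. Smchd1, of the same list, was above 0, at 0.533 and 2.54 on replicates 2 and 3. A link of these genes to Meg3 was not tested. At 3 months 8 of 17 were above and 9 below, with a value of 3.15 ± 1.06 (SE; adjusted p = 0.639 by limma) for Arid4a, a chromatin protein, and Trim28 at -1.55 ± 0.88. At 12 months 12 of 18 were above and 6 below, Arid4a being at 2.64 ± 1.08 (SE, limma adjusted p = 0.578). Arid4b, of the same list, was below 0 there, at -3.90 and -2.24 on replicates 1 and 3. Its fitted ratio was -4.28 ± 1.91 (SE, limma adjusted p = 0.587). None of the 12 probes tested at 3 months and the 13 tested at 12 months passed the adjusted threshold.

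The signalling genes around Igf2 and Dlk1 formed a list of 24, of which 23 had a probe: insulin-like growth factors, their receptors and binding proteins, and the Notch pathway, in which Dlk1 acts as a Delta-like protein. In WT ageing 7 of 15 listed probes were above 0 and 8 below. Notch1, a receptor of the pathway, stood at -4.50 and -4.63 on replicates 1 and 2. On the same arrays Igf2bp3 stood at 3.38 and 4.45 and Igf1r at 2.76 and 3.51. At 3 months 6 of 17 were above and 11 below, and at 12 months 8 of 13 were above and 5 below. Hey1, a target of Notch, had a 3-month ratio of 2.78 ± 1.22 (SE, limma adjusted p = 0.646) and a 12-month ratio of 3.82 ± 1.22 (SE, limma adjusted p = 0.578). Igfbp5, of the same list, was below 0 at both ages, on different probes. Its ratios were -2.16 ± 0.98 at 3 months (SE, limma adjusted p = 0.657) and -1.77 ± 0.95 at 12 months (SE, limma adjusted p = 0.602). Igf2r, which clears Igf2 and is itself imprinted, stood at 4.67 and 2.24 on its 2 arrays of 12 months; the fitted ratio, 5.56 ± 2.67 (SE, limma adjusted p = 0.590), lay above both. None of the 14 probes tested at 3 months and the 11 tested at 12 months passed the adjusted threshold.

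Tissue RNA cannot tell fewer cells of a type from less RNA per cell, and the ratios give no level by which the labelled hippocampus could be checked against its markers. Meninges and choroid plexus, which express Igf2 strongly, border the hippocampus. Of 9 listed meningeal and fibroblast probes in WT ageing, 6 were above 0 and 3 below (median 0.28, means from -3.46 to 0.69). On replicates 1 to 3 Slc6a13 stood at -3.74, -2.97 and -3.20 and Col1a2 at -3.0, -2.86 and -4.53. A Dcn probe stood at 1.17, -0.172 and 0.03 on the same arrays, and Col1a1 at 0.019 and 0.261 on replicates 2 and 3. Of 7 choroid plexus probes 2 were above and 5 below in WT ageing (means from -4.64 to 1.13), and 6 of 7 were above at 3 months. At 12 months 3 of 5 were above (median 0.31, means from -3.60 to 2.24). The lowest of the 5 was Ttr, the main choroid plexus transcript, at -3.57, -3.49 and -3.73. Folr1 stood at 4.73 and -0.249 on replicates 1 and 2. Neuron markers, beside the neuronal genes Meg3, Snrpn, Ndn and Peg3, were above 0 in 5 of 9 probes in WT ageing (means from -3.46 to 4.48), in 7 of 11 at 3 months (-4.01 to 5.88; median 2.20) and in 8 of 12 at 12 months (-4.0 to 3.27; median 1.72). Hippocampal subfield markers were above 0 in 8 of 14, 9 of 13 and 7 of 9 probes. Glia markers were above 0 in 5 of 12, 6 of 10 and 6 of 10 probes, and vascular markers in 3 of 8, 5 of 9 and 5 of 8. The 12-month means of the glia markers ran from -1.53 to 3.07. Highest was Mbp, a myelin protein, at 3.27, 2.53 and 3.41 on the 12-month arrays, and lowest Csf1r, at -0.921, -2.81 and -0.868. The part of these cell types in the values of the imprinted genes was not tested.

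The probes most like Meg3 over the 8 arrays that listed it were sought among 165 probes listed on all of those arrays. The 5 with the highest Pearson correlation of centred ratios were Clcn3 (r = 0.994), Fam98a (0.992), Cops9 (0.991), Lsm10 (0.991) and Ip6k1 (0.987). Each was low in WT ageing and high between genotypes at 12 months: Clcn3, a chloride-proton exchanger, averaged -3.55 in WT ageing and 2.57 at 12 months, with -0.165 and 0.461 on the 2 arrays of 3 months. Ip6k1, an inositol phosphate kinase, averaged -4.76 and 3.17, with -0.449 and -1.63 at 3 months. The 8 arrays share mice, with the 12-month WT mice on 6 of them, so these correlations describe the pattern and are not a test. No probe of the other 9 imprinted genes was listed on all 8 of these arrays.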

How the data were processed

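The data are the log2 ratios of test over reference that the authors deposited for 9 arrays. How those values were scanned, corrected, filtered and normalized is not given in the sources used here. Depth is not known for arrays, and their number limits the precision. Probes took the symbols of the platform annotation, updated through RefSeq's table for GRCm38.p6 (2728 of 16675 symbols updated, none of them among the 10 genes); 8902 probes had no symbol. Each array was centred on its median. The model, limma 3.58.1 under R 4.3.3, used generalised least squares and held 1 term per comparison, a dye term and a covariance between arrays from shared mice (variance ratio 1.02, from 142 probes listed on all arrays). A probe entered a comparison if at least 2 of its 3 arrays listed it, its ratio could be estimated beside the dye term and 1 residual degree of freedom was left. Without the dye term 14749 probes entered WT ageing, against 11183 with it. Moderated p-values were two-sided and Benjamini-Hochberg adjusted over all probes tested, with a threshold of 0.05. The code was tested on simulated data. The members and lists were chosen with earlier results of these data known. Named genes are all 10 members, for other lists up to 4 genes of smallest p in each comparison, of which some are printed, and for likeness to Meg3 the 5 probes of highest Pearson correlation. Alternatives covered the centring, covariance, dye, slide numbers, filter, gene means, replicate number and leaving out each array; gap-filled centring and a covariance from gene means were added after the data were seen. The full 3xTG strain name is not reported here.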

Additional observations from a re-analysis of the deposited data

Results flagged for a closer look

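Igf2 is listed here because its genotype values lay on opposite sides of the array median at the 2 ages: both arrays of 3 months were below and both of 12 months above. The mean at 12 months exceeded that at 3 months by 0.68 log2 units. Tested in the fit, the difference was 0.60 ± 1.55 (SE) and did not pass (limma adjusted p = 0.996, unadjusted p = 0.712). Without centring it was -0.65, and the deposited 3-month values had opposite signs (-1.43 and 0.705).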

How the results depend on the processing

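No probe passed the adjusted threshold under any of the 19 alternatives, in any comparison. The unadjusted counts of 771, 791 and 925 probes became 1475, 1679 and 1890 with arrays treated as independent, and in WT ageing 1560 without centring (1503 above and 57 below 0, against 135 and 636). Of the tested values of the 10 genes, 165 kept their sign and their side of the threshold and 12 changed sign. The genotype ratio of Peg3's first probe at 3 months was -0.27 on the scale of abundant transcripts and -0.73 over gene means. It ran from -0.046 to 2.31 when arrays were left out in turn: -0.046 without replicate 2 at 3 months, -0.04 and -0.03 without replicates 2 and 3 at 12 months and -0.008 without replicate 2 of WT ageing. At 12 months Snrpn's first probe was -0.14 with abundant transcripts at 0, and Igf2 was -1.01 without centring, -1.46 with abundant transcripts at 0 and -0.30 with gap-filled centring. The difference between ages was 0.45 for Snrpn over gene means and -0.65 for Igf2 without centring. The cause of these changes was not tested. Of the values given without a test, 219 moved by less than the spread between arrays and 37 by more. For Meg3 at 12 months that spread was only 0.02. Small shifts of its value, such as from 2.92 to 2.95 over gene means, are therefore among the 37. Meg3 was -2.26 in WT ageing and 1.76 at 12 months without centring, -3.53 and 1.24 with abundant transcripts at 0, and -4.23 to -3.96 and 2.80 to 2.96 with an array left out. Cdkn1c in WT ageing was 0.21 without replicate 2 and -2.31 without replicate 1 of that comparison.

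With the replicate number as a block, Meg3 was -4.11, -0.05 and 2.92 and Snrpn's first probe 2.48 at 3 months, and no probe was called. Same-numbered arrays correlated at -0.08 to 0.24 after removing group means, and the number stands for a shared mouse only in part: replicates 1 and 3 of WT ageing each share a WT mouse with the same number at 3 months, replicate 2 does not. Without replicate 2 of WT ageing the variance ratio reached its upper limit of 10. Missing small ratios and 2 mice a group limit every value.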
